A study of Mus musculus with 4 samples.

Results

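The EGF receptor family and its ligands were followed in RNA-seq of primary cultures of mouse prefrontal cortex (PFC) grown with or without fibroblast growth factor 2 (FGF2). The members were chosen by name. They are the 4 receptors Egfr, Erbb2, Erbb3 and Erbb4, the 3 neuregulins Nrg1, Nrg2 and Nrg3, and the 3 EGF-type ligands Hbegf, Tgfa and Btc, 10 genes of the 55421 listed in the count files. All 10 were listed, all 10 had counts in every library and all 10 passed the filter on low counts.

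PFC cells of wild-type C57BL/6 mice at postnatal day 0 were dissociated and kept for 10 days in Neurobasal medium with B27. The FGF2 group (2 libraries) received FGF2 at 5 ng/mL, and the no FGF2 group (2 libraries) did not. Age, strain, genotype, medium and culture time were shared by both groups, and whole cultures, not sorted cells, gave the total RNA. The study's methods call the replicates of all bulk samples other than human GW11 and GW20 (GW, gestational week) technical, without naming the mouse cultures, and the labels number the libraries without saying more. Thus n counts libraries, and p-values may cover technical spread only. Counts on genes totalled 9166432 and 9907613 in the FGF2 libraries and 10460236 and 10799886 in the no FGF2 libraries. At these depths 3 counts, the floor used for detection, correspond to 0.278 to 0.327 CPM (counts relative to the TMM-adjusted library size). The cultures held neuronal and glial RNA. The neuronal genes Rbfox3 and Map2, the astrocyte genes Aqp4 and Aldh1l1 and the oligodendrocyte lineage genes Sox10 and Olig1 were counted in all 4 libraries. Of 7 endothelial markers, 1, Cldn5, was at 0 in all 4. The endothelial gene Pecam1 had 21 and 17 counts with FGF2 and 19 and 29 counts without.

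The receptors of this family are tyrosine kinases that signal as pairs. Egfr binds Tgfa, Hbegf and Btc, Erbb3 and Erbb4 bind neuregulins, Erbb2 has no known ligand and serves as a partner for the other receptors, and Erbb3 has a weak kinase and signals through its partner. Most ligands are made as membrane proteins whose EGF-like domain is released by metalloproteases. In the cortex, Erbb4 is best known from inhibitory neurons (IN), Erbb3 from the oligodendrocyte lineage, and Egfr from progenitors and glia.

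With FGF2, Nrg1 was 2.21-fold and Erbb2 1.85-fold higher, whereas Erbb4 was 1.41-fold and Nrg3 1.43-fold lower. Thus 1 receptor and 1 neuregulin rose and 1 receptor and 1 neuregulin fell. Egfr, Erbb3, Nrg2, Hbegf, Tgfa and Btc did not pass the test. Genes were called at an adjusted p-value of 0.05 by edgeR's quasi-likelihood test, adjusted by the Benjamini-Hochberg method across 17144 genes with sufficient counts. Of all genes tested, 40.5% were called, 20.7% higher and 19.9% lower, so the 4 of 10 members called are near the share of all genes. The median log2 fold change (FGF2 over no FGF2) was 0.02 over the 10 members and -0.00076 over all genes tested. DESeq2, which called 23.2% of the genes it tested, called the same 4 members.

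**Figure D1:**
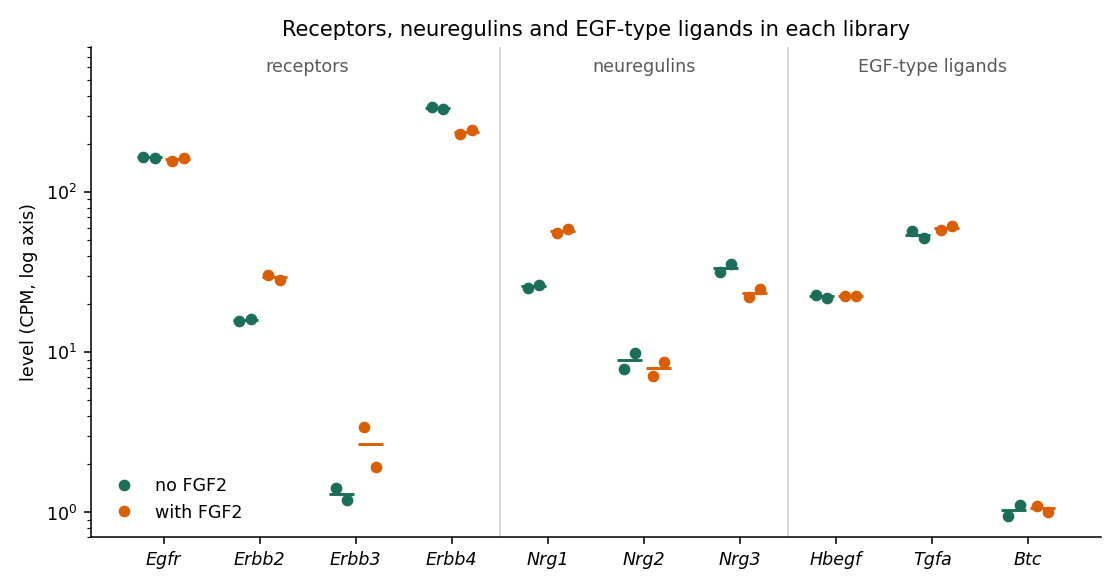
Level of each member in CPM (log axis) in the 4 libraries, with a point per library and a line at the mean of the 2 libraries of a group. Erbb2 and Nrg1 are higher and Erbb4 and Nrg3 lower in both FGF2 libraries than in both no FGF2 libraries, and Erbb3 and Btc lie lowest.

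Among the receptors, Erbb4, the neuregulin receptor with an active kinase, had the highest level. It was at 230 and 245 CPM (2090 and 2420 counts) in the FGF2 libraries and at 341 and 328 CPM (3592 and 3561 counts) in the no FGF2 libraries. Both FGF2 libraries were below both no FGF2 libraries. The log2 fold change was -0.49 (SE 0.04, 95% interval -0.58 to -0.41, edgeR adjusted p = 8.9e-28). In bulk RNA, fewer cells of a type and less RNA per cell cannot be told apart. Markers of IN moved in the same direction as Erbb4. All 10 IN markers fell (8 called lower with DESeq2), with a median log2 fold change of -0.69. Their summed level was 694 and 704 CPM with FGF2 and 1159 and 1196 CPM without. Other neuronal markers fell as well: 8 of 10 pan-neuronal markers were called lower and 1 higher, and 5 of 10 excitatory neuron markers were called lower. The part of these cell types in the lower level of Erbb4 was not tested.

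Erbb2 (mm10 chr11:98412470-98437716, plus strand), the receptor without a ligand of its own, was at 30.3 and 28.4 CPM (276 and 280 counts) with FGF2 and at 15.6 and 16.2 CPM (164 and 176 counts) without. The groups did not overlap. The log2 fold change was 0.88 (SE 0.13, 95% interval 0.63 to 1.14, edgeR adjusted p = 1.1e-10). The exons of Erbb2 overlap those of Mien1 on the other strand by 9 bases, 0.173% of the Erbb2 exon bases, and Mien1 had 155 and 128 counts with FGF2 and 242 and 204 counts without.

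Erbb3 (mm10 chr10:128567523-128589652, minus strand), the neuregulin receptor with a weak kinase, was the least abundant receptor. The FGF2 libraries held 31 and 19 counts (3.41 and 1.93 CPM) and the no FGF2 libraries 15 and 13 counts (1.42 and 1.2 CPM). Every library was above the floor of 3 counts, and both FGF2 libraries were above both no FGF2 libraries. The log2 fold change of 1.01 (SE 0.45, 95% interval 0.13 to 1.90) did not pass after adjustment (edgeR adjusted p = 0.059, DESeq2 adjusted p = 0.33). The value rested on the first FGF2 library: it was 1.37 without FGF2 library 2 (edgeR adjusted p = 0.026) and 0.55 without FGF2 library 1. Oligodendrocyte lineage markers were higher with FGF2 in the same libraries, with 9 of 9 tested genes called higher, a median log2 fold change of 2.05 and a summed level of 1859 and 1868 CPM with FGF2 against 558 and 567 CPM without. Sox10, a transcription factor of that lineage, was at 135 and 132 CPM with FGF2 and at 24.1 and 26.2 CPM without. Olig1, a further factor of the lineage, was at 79.1 and 93.4 CPM with FGF2 and at 63.4 and 69.9 CPM without. The part of these cells in the level of Erbb3 was not tested.

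Egfr (mm10 chr11:16752203-16918158, plus strand), the receptor for the EGF-type ligands, was at 157 and 163 CPM (1431 and 1609 counts) with FGF2 and at 166 and 164 CPM (1753 and 1776 counts) without. Both FGF2 libraries were slightly below both no FGF2 libraries. The log2 fold change was -0.04 (SE 0.05), and its 95% interval of -0.15 to 0.06 bounds the change in these libraries (edgeR adjusted p = 0.58). Markers of astrocytes, a cell type that can express Egfr, were mostly higher with FGF2: 7 of 9 tested genes were called higher and 1 lower, and Aqp4, the astrocyte water channel, was at 1616 and 1687 CPM with FGF2 against 961 and 968 CPM without. Aldh1l1, an astrocyte folate enzyme, was at 132 and 130 CPM with FGF2 and at 80 and 80.4 CPM without. Their part in the level of Egfr was not tested.

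Promoters of the receptors that rose and fell, and of the neuregulin that fell with Erbb4, are shown as members that moved in both directions. They are RefSeq sequences of the build GRCm38.p6, from 250 bases before the annotated start to 50 bases after it, read 5′ to 3′ on the strand of the gene: Erbb2 at chr11:98412234-98412533 (plus strand), Erbb4 at chr1:69108010-69108309 (minus strand) and Nrg3 at chr14:39473039-39473338 (minus strand). The promoters of Egfr, Tgfa and Btc were searched as well, and those of Nrg1, Nrg2, Erbb3 and Hbegf were not. Capitals mark an ETS core, a motif of factors that act after FGF and ERK signalling.
Erbb2: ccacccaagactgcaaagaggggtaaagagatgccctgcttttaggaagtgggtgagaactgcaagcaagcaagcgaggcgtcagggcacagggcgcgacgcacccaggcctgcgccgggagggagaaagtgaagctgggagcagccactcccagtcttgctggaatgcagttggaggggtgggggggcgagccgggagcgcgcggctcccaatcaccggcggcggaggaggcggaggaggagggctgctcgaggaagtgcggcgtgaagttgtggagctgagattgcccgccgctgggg
Erbb4: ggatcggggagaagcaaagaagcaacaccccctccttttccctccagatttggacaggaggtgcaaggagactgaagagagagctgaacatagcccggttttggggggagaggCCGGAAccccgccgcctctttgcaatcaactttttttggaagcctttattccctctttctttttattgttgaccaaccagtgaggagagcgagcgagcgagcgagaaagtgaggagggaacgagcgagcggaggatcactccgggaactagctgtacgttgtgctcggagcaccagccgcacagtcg
Nrg3: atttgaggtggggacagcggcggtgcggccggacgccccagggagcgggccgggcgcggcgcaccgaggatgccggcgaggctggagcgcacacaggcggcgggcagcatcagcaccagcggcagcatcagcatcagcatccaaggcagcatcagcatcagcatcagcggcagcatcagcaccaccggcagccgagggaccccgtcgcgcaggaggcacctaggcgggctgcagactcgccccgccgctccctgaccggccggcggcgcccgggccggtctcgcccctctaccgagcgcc
The GC content of these windows was 66% for Erbb2, 55.3% for Erbb4 and 74.3% for Nrg3, against a median of 52.7% over 32851 promoters of the same length. The ETS core CCGGAA, searched on both strands, occurred 1 time in the window of Erbb4 and 1 time in that of Egfr, and in 14.9% of all windows. The AP-1 motif TGANTCA (7.81% of all windows) and the CRE motif TGACGTCA (1.79%) occurred in none of the 6 windows searched. The ETS core thus stood in the window of a receptor that fell and of a receptor that did not pass the test. A match is a match of letters only.

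The neuregulins moved in opposite directions. Nrg1, a ligand of Erbb3 and Erbb4, was at 55.6 and 58.6 CPM (506 and 578 counts) with FGF2 and at 25.2 and 26.4 CPM (265 and 287 counts) without. The groups were far apart against the spread within each. The log2 fold change was 1.15 (SE 0.10, 95% interval 0.95 to 1.34, edgeR adjusted p = 5.0e-29). A noncoding gene on the other strand overlaps 482 bases, 4.66%, of the exon bases of Nrg1. It is not among the genes listed with counts, and whether its reads were counted to Nrg1 was not tested.

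Nrg3, a ligand of Erbb4 that is made mainly in the nervous system, was at 22.2 and 24.7 CPM (202 and 244 counts) with FGF2 and at 31.7 and 35.5 CPM (334 and 385 counts) without. Both FGF2 libraries were lower. The log2 fold change was -0.52 (SE 0.12, 95% interval -0.74 to -0.29, edgeR adjusted p = 4.7e-05). Pan-neuronal markers moved the same way, with 8 of 10 called lower and 1 higher, a median of -0.46, and a summed level of 3610 and 3735 CPM with FGF2 against 5255 and 5239 CPM without. Their part in the level of Nrg3 was not tested. Nrg2, a further ligand of Erbb3 and Erbb4, had 65 and 86 counts (7.14 and 8.72 CPM) with FGF2 and 83 and 108 counts (7.88 and 9.95 CPM) without. Its groups overlapped, and the log2 fold change was -0.17 (SE 0.21, 95% interval -0.57 to 0.24, edgeR adjusted p = 0.57).

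Erbb4 (chr1:68032186-69108059), Nrg1 (chr8:31814551-32884029) and Nrg3 (chr14:38368952-39473088), all on the minus strand of mm10, span 1075.9, 1069.5 and 1104.1 kb of the genome. Among the 216 tested genes that span at least 500 kb, 43.1% were called lower and 22.7% higher, and the median log2 fold change was -0.13. Erbb4 and Nrg3 thus fell in a class in which lower calls were more common than among all genes, and Nrg1, of nearly the same span, rose. The part of gene length in these results was not tested.

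**Figure D2:**
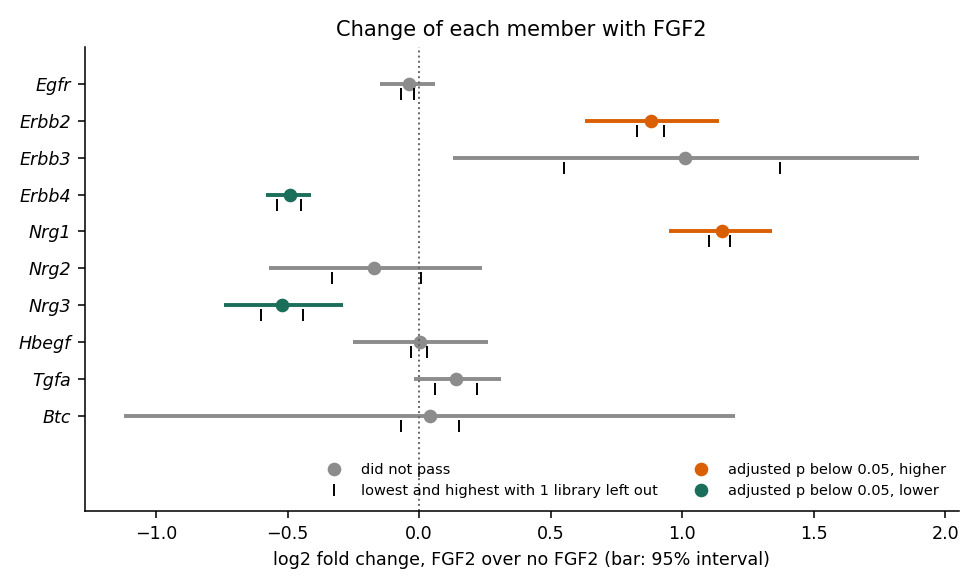
Log2 fold change of each member, FGF2 over no FGF2, with its 95% interval (coloured bar, not adjusted for the number of genes) and the lowest and highest values when 1 library is left out (black ticks). Nrg1 and Erbb2 lie to the right and Erbb4 and Nrg3 to the left of 0, while the interval of Btc runs from -1.12 to 1.20.

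The neuregulins and the EGF-type ligands share the EGF-like domain that contacts the receptor, so its coding bases are shown for the neuregulins that moved apart and for a pair of ligands that did not pass the test. The bases were read from GENCODE M21 transcripts, and their positions are given on mm10. For each gene the longest coding transcript that held the domain was used, so other splice forms are not shown. Each stretch runs from the first to the last of the 6 cysteine codons of the domain. These codons are in capitals and give the disulfide bonds that fold it. Each stretch lies on 2 exons with an intron between: Nrg1 in chr8:31837698-31849398 (minus strand), Nrg3 in chr14:38668261-39012054 (minus strand), Tgfa in chr6:86263200-86269960 (plus strand) and Btc in chr5:91362421-91366197 (minus strand).
Nrg1: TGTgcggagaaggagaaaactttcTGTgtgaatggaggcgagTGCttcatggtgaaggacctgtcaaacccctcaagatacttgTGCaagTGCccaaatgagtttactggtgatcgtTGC
Nrg3: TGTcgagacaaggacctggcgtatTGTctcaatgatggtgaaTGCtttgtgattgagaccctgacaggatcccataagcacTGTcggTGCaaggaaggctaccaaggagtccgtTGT
Tgfa: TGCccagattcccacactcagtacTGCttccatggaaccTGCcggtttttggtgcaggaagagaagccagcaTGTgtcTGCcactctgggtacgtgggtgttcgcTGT
Btc: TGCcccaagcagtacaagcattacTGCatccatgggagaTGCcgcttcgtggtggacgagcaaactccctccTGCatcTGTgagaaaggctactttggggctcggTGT
The stretch was 120 bases long in Nrg1, 117 in Nrg3 and 108 in both Tgfa and Btc. Of the aligned positions, gaps included, 56.9% were identical between Nrg1 and Nrg3 and 62% between Tgfa and Btc, while the 4 pairs of a neuregulin with Tgfa or Btc were 49.2% to 53% identical. Among the stretches shown, each was thus most similar to the other of its ligand class. Nrg2 and Hbegf were not compared.

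None of the EGF-type ligands passed the test. Tgfa, a ligand of Egfr, was at 58.1 and 61.5 CPM (529 and 606 counts) with FGF2 and at 57.1 and 51.3 CPM (602 and 557 counts) without. Both FGF2 libraries were slightly above both no FGF2 libraries, and the log2 fold change was 0.14 (SE 0.08, 95% interval -0.02 to 0.31, edgeR adjusted p = 0.17). Hbegf, a heparin-binding ligand of Egfr and Erbb4, had 203 and 223 counts (22.3 and 22.6 CPM) with FGF2 and 241 and 238 counts (22.9 and 21.9 CPM) without. Its groups overlapped, and the log2 fold change of 0.0045 (SE 0.13) had a 95% interval of -0.25 to 0.26 (edgeR adjusted p = 0.98). Btc, a further ligand of Egfr and Erbb4, had only 10 and 10 counts in the FGF2 libraries and 10 and 12 in the others, so that its interval of -1.12 to 1.20 around 0.04 (SE 0.59, edgeR adjusted p = 0.97) leaves a wide range of changes that could not be detected at this depth.

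Levels of different genes were compared as CPM per kb of exon. With FGF2 the order of the mean levels was Erbb4 (19.2 CPM per kb), Egfr (14.1), Tgfa (9.21), Erbb2 (5.64), Nrg1 (5.52), Hbegf (4.65), Nrg3 (3.44), Nrg2 (2.53), Erbb3 (0.443) and Btc (0.234). Of these neighbours, only the ranges of Erbb2 and Nrg1 overlapped across the 2 libraries. Without FGF2 the order was Erbb4 (27.1 CPM per kb), Egfr (14.6), Tgfa (8.36), Nrg3 (4.93), Hbegf (4.63), Erbb2 (3.05), Nrg2 (2.84), Nrg1 (2.49), Btc (0.227) and Erbb3 (0.218). There the ranges of Nrg3 and Hbegf, of Nrg2 with both Erbb2 and Nrg1, and of Btc and Erbb3 overlapped. Erbb4, Egfr and Tgfa were the 3 highest members in both groups, while Nrg1 stood at place 5 with FGF2 and at place 8 without, and Nrg3 at place 7 and place 4. By the length of the longest transcript the 3 highest members were the same, and Nrg1 stood at place 4 and place 6.

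Within the receptors, Erbb4 made up 47.8% and 49.6% of the summed level per kb in the FGF2 libraries and 60.6% and 59.9% in the no FGF2 libraries. Erbb2 made up 15% and 13.6% with FGF2 and 6.56% and 7.02% without. The mean share of Egfr was 35.9% ± 0.179 (SD, n = 2) with FGF2 and 32.4% ± 0.228 (SD, n = 2) without, and that of Erbb3 was 1.13% ± 0.465 and 0.485% ± 0.05 (SD, n = 2 each). The share of Egfr was thus higher with FGF2 although the level of Egfr itself did not pass the test, since shares are parts of a sum. The ratio of Erbb4 to Erbb2 per kb was 3.42 ± 0.319 with FGF2 and 8.88 ± 0.498 without (SD, n = 2 each). With 2 against 2 libraries the two-sided exact permutation test cannot go below p = 0.333, which is the value for each of these shares and for this ratio.

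**Figure D3:**
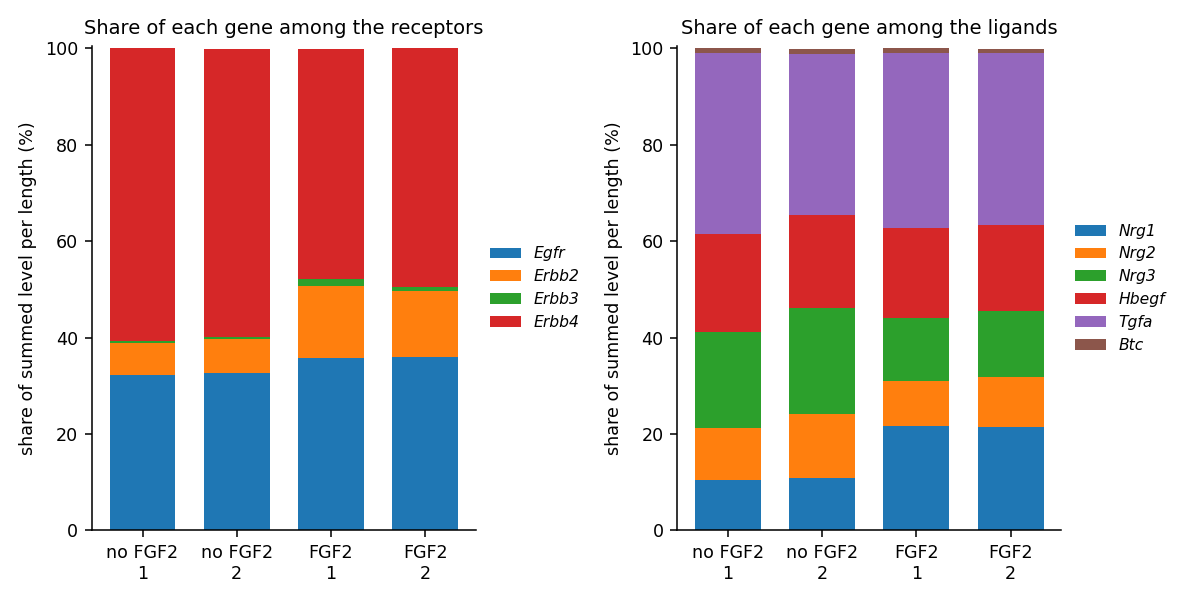
Share of each gene in the summed level per kb of exon of the 4 receptors (left) and of the 6 ligands (right), in percent, with 1 bar per library. The part of Erbb4 is smaller and that of Erbb2 larger in the FGF2 libraries, and the part of Nrg1 is 21.7% and 21.4% with FGF2 against 10.4% and 10.8% without.

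Within the 6 ligands, Nrg1 made up 21.6% ± 0.224 of the summed level per kb with FGF2 and 10.6% ± 0.286 without (SD, n = 2 each), and Nrg3 made up 13.5% ± 0.392 and 21% ± 1.49. Tgfa was the most abundant ligand in every library, with mean shares of 36% with FGF2 and 35.6% without. Per kb, Nrg1 stood to Nrg3 at a ratio of 1.65 and 1.56 in the FGF2 libraries and of 0.523 and 0.491 in the no FGF2 libraries, so that the more abundant of both genes was Nrg1 with FGF2 and Nrg3 without. By the length of the longest transcript the mean ratio was 1.81 with FGF2 and 0.57 without. The exact permutation p for the shares of Nrg1 and Nrg3 and for this ratio was 0.333, the smallest that 2 against 2 libraries allow.

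The other genes of the pathway were read from 4 lists of 64 genes, of which 59 were tested. In all, 24 were called higher, 15 lower and 20 did not pass, with a median log2 fold change of 0.10. Over all genes tested, 20.7% were called higher and 19.9% lower, with a median of -0.00076, and the counts of each list stand against the same shares. Of the 5 other ligands, only Egf and Nrg4 were tested. Egf, the ligand that names the receptor, had 43 and 70 counts in the FGF2 libraries against 99 and 85, a log2 fold change of -0.53 (SE 0.22, edgeR adjusted p = 0.043), and the call was lost with DESeq2 (adjusted p = 0.33), without the filter on low counts and without FGF2 library 1, no FGF2 library 1 or no FGF2 library 2. With 1 library left out the log2 fold change of Egf ran from -0.87 to -0.28. Nrg4, an Erbb4 ligand, had 6 and 7 counts in the FGF2 libraries against 17 and 18, and did not pass (log2 fold change -1.24, edgeR adjusted p = 0.076). Areg had 3, 1, 0 and 3 counts in the FGF2 and then the no FGF2 libraries. Ereg had 2 counts in each FGF2 library and Epgn 1, with 0 in both no FGF2 libraries for each. The ligands Areg, Ereg and Epgn were therefore at or under the floor of 3 counts in all 4 libraries.

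The list for ligand release held sheddases and their partners. Of 13 tested genes, 6 were higher, 1 lower and 6 did not pass, with a median of 0.18. Rhbdf2, an inactive rhomboid that brings the sheddase Adam17 to the cell surface, was at 17 and 15.3 CPM with FGF2 and at 4.75 and 4.42 CPM without (log2 fold change 1.82, SE 0.20, edgeR adjusted p = 3.8e-18). Its relative Rhbdf1 rose as well (0.78, SE 0.11), as did Cd9, a tetraspanin that associates with the Hbegf precursor (1.06, SE 0.06). Adam17 itself, named after its values were seen, was at 79.1 and 84.9 CPM with FGF2 and at 54.3 and 55.6 CPM without (0.58, SE 0.08, edgeR adjusted p = 1.9e-12). Adam19, a protease that can cut neuregulin precursors, was the 1 gene called lower (-0.34, SE 0.10), a call that was lost with DESeq2 (adjusted p = 0.069) and without no FGF2 library 2. Bace1, which cuts Nrg1 and was also named after its values were seen, was at 131 and 132 CPM with FGF2 and at 144 and 132 CPM without, and did not pass (-0.07, SE 0.06, edgeR adjusted p = 0.35).

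Among adaptors and kinases that act behind the receptors, 9 of 23 tested genes were higher, 8 lower and 6 did not pass, with a median of 0.03. Plcg2, a phospholipase C that is abundant in microglia and other immune cells, was at 44.5 and 44.3 CPM with FGF2 and at 12.4 and 10.6 CPM without (log2 fold change 1.95, SE 0.13, edgeR adjusted p = 7.8e-52). Of the microglia markers, 4 of 4 tested genes were also called higher (2 with DESeq2), with a summed level over the whole list of 34.3 and 36.3 CPM with FGF2 and 21 and 21.6 CPM without. Csf1r, a receptor that marks microglia, was at 5.39 and 5.27 CPM with FGF2 and 1.99 and 1.93 CPM without, and Cx3cr1, the microglial fractalkine receptor, at 2.64 and 3.75 CPM with FGF2 and 1.61 and 1.2 CPM without. The part of microglia in the level of Plcg2 was not tested. Shc1 and Shc2, adaptors that bind activated receptors, moved in opposite directions, with log2 fold changes of 0.68 (SE 0.11) and -0.64 (SE 0.10). Stat5a, a transcription factor that can bind Erbb4, had 21 and 36 counts in the FGF2 libraries against 17 and 12 (1.13, SE 0.44, edgeR adjusted p = 0.025). That call was lost with DESeq2 (adjusted p = 0.23), without FGF2 library 2 and without no FGF2 library 2. The adaptors Grb10 (-0.44, SE 0.08) and Nck2 (-0.42, SE 0.09) were lower.

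The list of inhibitors and turnover genes held genes that limit the receptors or take part in their turnover or signalling. Of 21 tested, 9 were higher, 5 lower and 7 did not pass, with a median of 0.10. Lrig1, which promotes the degradation of the receptors, was at 163 and 156 CPM with FGF2 and at 84.8 and 85.3 CPM without (log2 fold change 0.90, SE 0.06, edgeR adjusted p = 1.1e-46). Its relative Lrig3 was also higher (0.96, SE 0.19), with 103 and 153 counts in the FGF2 libraries against 53 and 95. The no FGF2 libraries of Lrig3 differed, at 5.03 and 8.75 CPM, and its log2 fold change ran from 0.62 to 1.41 with 1 library left out. Socs3, a suppressor of cytokine receptor signalling, was at 11.3 CPM in both FGF2 libraries and at 3.7 and 4.33 CPM without (1.49, SE 0.23). Its relatives Socs2 (-0.49, SE 0.11) and Socs5 (-0.39, SE 0.10) were lower. Errfi1, a feedback inhibitor of the Egfr kinase, was lower as well (-0.41, SE 0.14, edgeR adjusted p = 0.0076), and its call was lost with DESeq2 (adjusted p = 0.15) and without no FGF2 library 1.

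**Figure D4:**
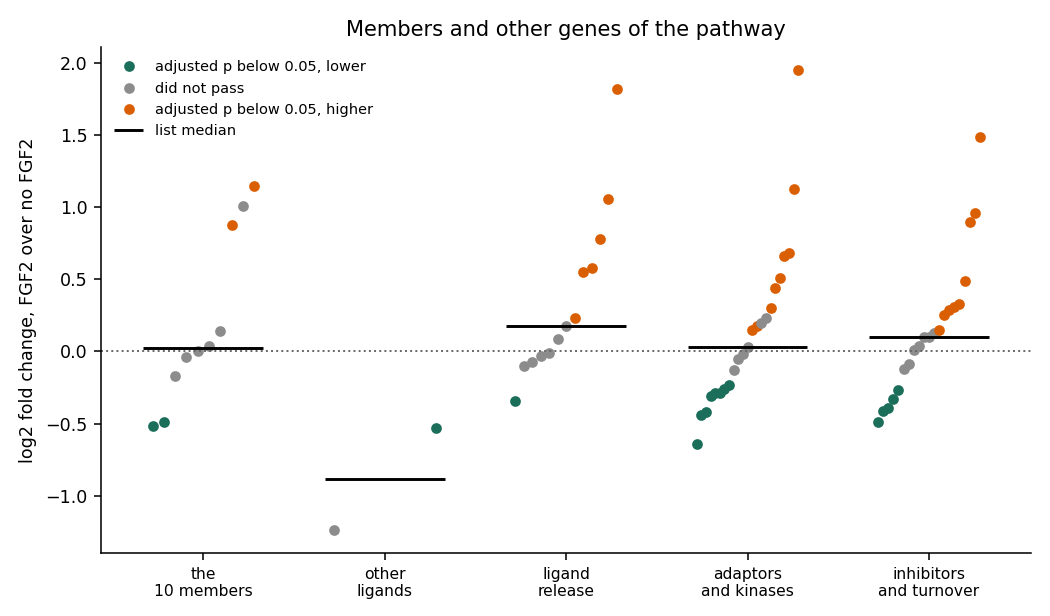
Log2 fold change, FGF2 over no FGF2, of the tested genes among the 10 members and in the 4 lists of other pathway genes, 1 point per gene, sorted within a list, with a black line at the list median. Genes called higher and lower stand in each list except the other ligands, of which 2 were tested.

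The cell type markers against which the members were read moved in both directions. Among excitatory neuron markers, 5 of 10 were lower and 5 did not pass, with a median of -0.39 and a range from -1.07 to 0.29. Slc17a7, the vesicular glutamate transporter of cortical excitatory neurons, was at 47.4 and 47.9 CPM with FGF2 and at 45.4 and 45.1 CPM without (log2 fold change 0.07, SE 0.09, edgeR adjusted p = 0.57). Slc17a6, 1 of the 5 called lower, was at the threshold (-0.34, SE 0.15, edgeR adjusted p = 0.050). That call was lost with DESeq2 (adjusted p = 0.35), limma-voom, the replicate block, no filter and at least 10 counts in every library. With 1 library left out the log2 fold change of Slc17a6 ran from -0.53 to -0.14. The GABA synthesis genes Gad1 (-0.67, SE 0.04) and Gad2 (-0.72, SE 0.05) fell more than Erbb4 did, by point estimate, and Rbfox3 (-0.90, SE 0.07) and Map2 (-0.32, SE 0.03) fell on either side of it. The differences between genes were not tested. Of the progenitor markers, 4 of 10 were higher and 3 lower, with Sox2 at 0.37 (SE 0.08) and Nes at -0.42 (SE 0.07). Fibroblast and mural markers had 2 of 7 tested genes higher and 2 lower. The genes called lower were the collagen genes Col1a1 (-2.18, SE 0.30) and Col1a2 (-1.73, SE 0.37). Those called higher, named after their values were seen, were Pdgfrb (0.73, SE 0.10) and Rgs5 (1.89, SE 0.40). The third collagen gene of the list, Col3a1, named after its values were seen, did not pass (-0.90, SE 0.40, edgeR adjusted p = 0.054). Of 3 tested endothelial markers 1 was higher and 1 lower, and Pecam1 did not pass (-0.16, SE 0.43, edgeR adjusted p = 0.81).

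**Figure D5:**
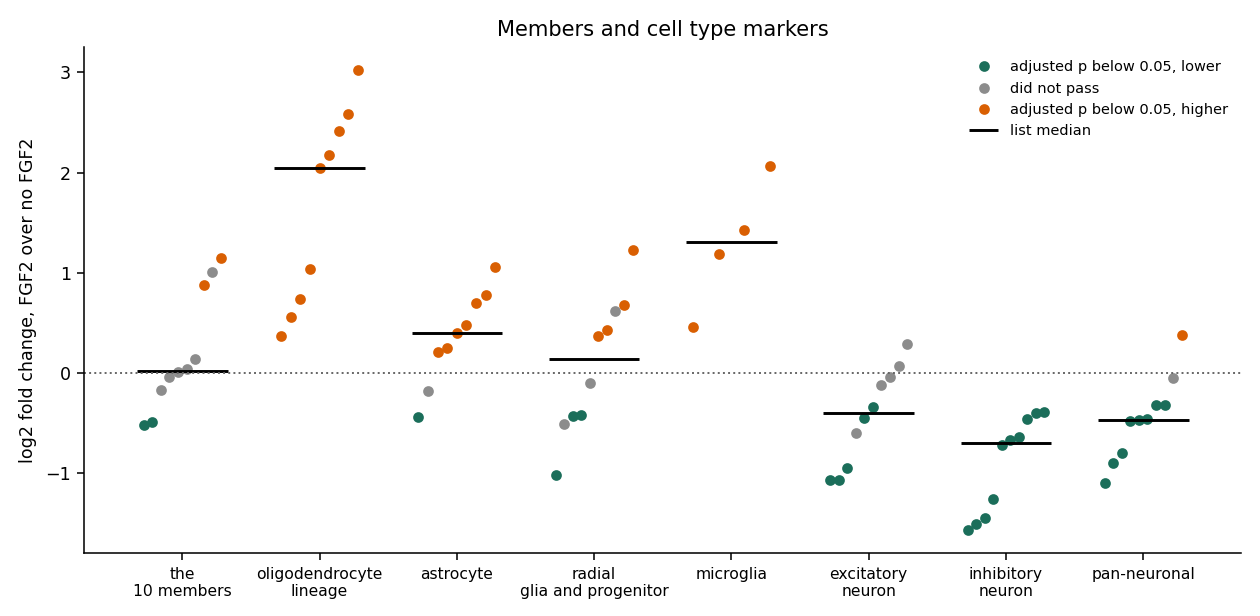
Log2 fold change, FGF2 over no FGF2, of the 10 members and of the tested genes in 7 lists of cell type markers, 1 point per gene, sorted within a list, with a black line at the list median. The oligodendrocyte lineage and microglia markers lie above 0 and all 10 IN markers below 0, while the members lie on both sides.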

How the data were processed

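Total RNA of the cultures was sequenced as paired reads in 4 libraries. The authors mapped the reads to mm10 (per the labels, HISAT2 2.1.0), kept reads of high mapping quality and counted them per gene with HTSeq 0.11.2. What they deposited are counts that were not normalized, and the annotation release and strand setting are not given in the sources used here. That quality filter drops reads with several matching places, which lowers the counts of genes with close copies. By BLAST 2.17.0, Egfr shares 100 bases at 95% identity with 1 other gene, and the matches of Nrg1 and Tgfa are antisense genes over their own exons.

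Of 55421 genes listed, 55240 were matched to GENCODE M21 (names, mm10 coordinates, exon lengths). The 5 tally entries were left out, of which read pairs in no feature were 43.15% to 45.87% and ambiguous pairs 1.474% to 1.765%. The edgeR 4.0.16 quasi-likelihood test (R 4.3.3, robust) was fitted to the whole table with the treatment as the only term, TMM scaling (factors 0.993 to 1.01), the expression filter of edgeR and Benjamini-Hochberg adjustment. The biological coefficient of variation was 3.9%. CPM and CPM per kb were computed from the counts, with the SD over 2 libraries. Replicates of a group differed by more than sampling noise (chi-square per degree of freedom 2.29 and 1.76) and were kept apart. Intervals and floors cover counting error and the spread between libraries only. Alternatives were 3 other scalings, no filter, at least 10 counts in every library, DESeq2 1.42.0, limma-voom (limma 3.58.1), a replicate block, each library left out, a threshold of 0.01 and the longest transcript as length.

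The members, the lists, the tests and the rule for named genes were chosen with earlier results of these data known. The rule names all 10 members, in each pathway list the 3 called genes that rose most and the 3 that fell most, every gene of a list of 5 or fewer, and the first 2 genes of each marker list.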

Additional observations from a re-analysis of the deposited data

How the results depend on the processing

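Of 520 values recomputed from the same 4 libraries, 489 were labelled as unchanged. For the log2 fold change of a member this meant the same side of the threshold and the same direction. For a receptor share it meant the same direction only. For a count it meant equal to the main count, 0 included, or within 1.5 times of it. Erbb2, Erbb4, Nrg1 and Nrg3 were called in 12 of 12 alternatives. Erbb3 was called in 2 of 12: with at least 10 counts in every library (1.01, adjusted p = 0.024) and without FGF2 library 2, and its values with 1 library left out ran from 0.55 to 1.37. DESeq2 called 2068 genes higher and 1939 lower, and 0 other ligands, 0 ligand release genes and 3 inhibitors lower, 0 pan-neuronal and 2 microglia genes higher, and 0 endothelial genes lower. Without the filter, 0 other ligands and 0 endothelial genes were lower, with limma-voom and with the block 0 endothelial genes were lower, and with at least 10 counts in every library 0 endothelial genes were higher. With 1 library left out, other ligands and ligand release genes called lower, pan-neuronal and excitatory neuron genes called higher and endothelial genes called lower each ran from 0 to 1. Small changes turned their sign: Hbegf was -0.02166 with upper quartile and -0.01304 with total count scaling and ran from -0.03014 to 0.03151 with 1 library left out, Nrg2 ran from -0.33 to 0.009061 and Btc from -0.06951 to 0.15. Without no FGF2 library 2, 6 of 10 members kept their place in the order of levels without FGF2. The labels do not say whether the replicate numbers pair the libraries. Same-numbered deviations correlated at 0.00538 over all genes tested, which cannot decide it, since counting noise lowers such a correlation. The replicate block gave 3478 genes higher and 3338 lower and the same 4 members. Scaling moved the median of all genes by 0.0261 at most in size. Depth limits Erbb3, Btc and the ligands at or under 3 counts.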
